A study of Mus musculus with 2 samples.

Results

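Accessible chromatin shared by neighbouring genes was examined in mouse hematopoietic stem cells. The material was 1716 regions of the control library that lay near the ends of 2 or more protein-coding genes. They were 5.39% of the 31831 control regions on chromosomes 1 to 19 and X. A region was taken when it overlapped, by at least 1 bp, a window reaching 1000 bp to each side of an annotated start or end of 2 or more different protein-coding genes (mm10, RefSeq). They are called two-gene regions here. The 8429 regions near exactly 1 gene (one-gene regions) served for comparison, and 21686 regions lay near no gene end.

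The data were ATAC-seq, which marks open DNA by the places where a transposase could insert adapters. The groups were wild-type C57BL/6J stem cells carrying an MSCV retrovirus with H1C (H1C overexpression), and the same kind of cells carrying the empty pMSCV vector (control). Both groups were sorted from bone marrow as CD48-CD150+LSK cells, both had gone through retroviral transduction, and about 1000 cells entered each library. H1C is a linker histone, encoded by the gene now named H1f2. With 1 library per group there was no replicate, no test between conditions could be run, and every interval covers counting error only. The sources used here did not give the age of the animals, the time after transduction, or whether transduced cells were selected.

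Genes that start next to each other on opposite strands can share a single stretch of open DNA, often called a bidirectional promoter. Such promoters are usually rich in CpG and depleted of nucleosomes, and they are known for widely expressed genes of DNA repair, mitochondria and RNA processing. Linker histones sit on the nucleosome beside the DNA that runs between nucleosomes, and they favour compact chromatin. Neighbouring genes can also meet with the start of one beside the end of the other, or with both ends together.

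The label of neighbouring gene ends held for most but not all of the 1716 regions. There were 1676 regions near 2 genes, 39 near 3, and 1 near 14. The last, on chromosome 18, touched the protocadherin alpha genes, which are annotated with a common end, and it was a weak region (control summit pileup of 15) that was not called with H1C. The 1716 regions touched 3085 genes in 1586 different gene combinations, of which 1459 had 1 region, 124 had 2 and 3 had 3. Regions of 1 gene combination are not independent of each other.

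Strand was available for 79.9% of the genes and gave the arrangement of 1274 regions near 2 genes. Head-to-head regions, with starts of opposite strands facing away from each other, numbered 575. In 316 regions the starts of opposite-strand genes overlapped, so that each gene began inside the other. The start of 1 gene lay beside the end of another in 328 regions, both were starts on the same strand in 27, and both were ends in 28. The strand of at least 1 gene was missing for 402 regions, and 40 regions had 3 or more genes. Facing starts of head-to-head regions lay a median of 101 bp apart (quartiles 47 and 233).

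Promoter sequences of 6 head-to-head pairs are shown for the bases around their facing starts, where the summits are described next. Each is 300 bases from RefSeq (GRCm38.p6), read 5′ to 3′ along the strand of the named gene, whose transcript starts after the first 250 bases. Capitals mark every match, on either strand, to any of 6 motifs. They were the CCAAT box, the GC box with the letters GGGCGG, the ETS factor motif with the letters CCGGAAG and the TATA box with the letters TATAAA. The others were the palindrome of the factor NRF1 and the cyclic AMP response element, CRE, with the letters TGACGTCA. The first 5 regions were also called with H1C, and the sixth was called in control only.
Npat, paired with Atm, chr9:53536797-53537096, plus strand: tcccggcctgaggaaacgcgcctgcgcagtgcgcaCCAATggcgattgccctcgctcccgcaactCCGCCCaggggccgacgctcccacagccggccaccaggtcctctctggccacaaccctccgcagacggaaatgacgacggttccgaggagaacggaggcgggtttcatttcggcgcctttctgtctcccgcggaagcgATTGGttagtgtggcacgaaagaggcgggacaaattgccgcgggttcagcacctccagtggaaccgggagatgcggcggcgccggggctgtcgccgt
Psmd13, paired with Sirt3, chr7:140882144-140882443, plus strand: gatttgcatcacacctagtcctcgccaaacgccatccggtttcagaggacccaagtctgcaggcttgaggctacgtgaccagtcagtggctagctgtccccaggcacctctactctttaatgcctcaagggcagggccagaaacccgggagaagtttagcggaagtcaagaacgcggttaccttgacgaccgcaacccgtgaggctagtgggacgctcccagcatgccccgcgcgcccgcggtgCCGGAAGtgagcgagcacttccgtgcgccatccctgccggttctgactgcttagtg
Sars2, paired with Mrps12, chr7:28741718-28742017, plus strand: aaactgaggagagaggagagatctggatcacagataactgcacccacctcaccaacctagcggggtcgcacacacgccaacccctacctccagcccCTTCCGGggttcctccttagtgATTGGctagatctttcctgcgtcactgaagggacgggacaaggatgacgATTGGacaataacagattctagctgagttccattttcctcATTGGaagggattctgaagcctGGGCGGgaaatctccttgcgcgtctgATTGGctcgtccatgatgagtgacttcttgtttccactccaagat
Tap1, paired with Psmb9, chr17:34187306-34187605, plus strand: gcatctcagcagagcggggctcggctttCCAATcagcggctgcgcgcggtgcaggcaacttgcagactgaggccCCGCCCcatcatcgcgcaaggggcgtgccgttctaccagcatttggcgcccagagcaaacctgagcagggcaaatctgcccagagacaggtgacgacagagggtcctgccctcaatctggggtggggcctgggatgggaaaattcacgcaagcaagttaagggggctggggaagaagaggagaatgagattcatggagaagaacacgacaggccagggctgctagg
Hdgfl2, paired with Ubxn6, chr17:56079381-56079680, plus strand: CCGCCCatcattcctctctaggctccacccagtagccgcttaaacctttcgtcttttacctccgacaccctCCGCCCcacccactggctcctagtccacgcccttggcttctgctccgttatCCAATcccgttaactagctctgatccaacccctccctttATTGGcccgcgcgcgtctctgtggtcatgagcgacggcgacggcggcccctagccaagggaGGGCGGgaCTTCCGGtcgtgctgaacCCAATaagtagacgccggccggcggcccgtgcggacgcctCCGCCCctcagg
Cct5, paired with Atpsckmt, chr15:31601797-31602096, minus strand: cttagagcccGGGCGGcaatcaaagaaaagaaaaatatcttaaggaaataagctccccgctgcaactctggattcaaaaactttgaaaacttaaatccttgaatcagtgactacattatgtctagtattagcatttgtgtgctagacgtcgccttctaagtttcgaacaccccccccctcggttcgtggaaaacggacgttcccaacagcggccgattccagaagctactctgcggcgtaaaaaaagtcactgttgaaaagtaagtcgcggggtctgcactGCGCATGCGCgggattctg

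In the Npat window the annotated start of Atm lay at base 32, 4 bases before a CCAAT match, and the control summit lay at base 69, between both starts. The RefSeq transcript used for this window starts 158 bp downstream of the outermost annotated Npat start. In the Psmd13 window the start of Sirt3 lay at base 166 and the summit at base 204. In the Sars2 window the start of Mrps12 lay at base 104 and the summit at base 182, and the window held 4 CCAAT matches. In the Tap1 window the start of Psmb9 lay at base 25 and the summit at base 97. The summit lay between the transcript starts in each of these 4 windows. The starts of Ubxn6 and Atpsckmt lay outside the windows of their partners. The summit at Hdgfl2 lay at base 114, 28 bp from the midpoint of starts 266 bp apart, and so between them. The summit at Cct5 lay at base 277, downstream of the Cct5 start, and so not between the starts.

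The promoter windows of genes at head-to-head regions differed from other promoters in the letters they held, and these counts were descriptions without a test. The ETS letters were in 28.8% of 1042 windows at head-to-head regions, in 18.7% of 5805 windows at one-gene start regions and in 12.1% of 17274 protein-coding promoters. CCAAT was in 44.9%, 40.2% and 39.6% of the same sets, and the GC box letters in 68%, 68.6% and 46.9%. TATAAA was in 5.28%, 6.87% and 13.4%. The NRF1 letters were in 3.55%, 2.36% and 1.35%, and the CRE letters in 3.93%, 3.57% and 2.36%. The median ratio of observed to expected CpG was 0.851 in the head-to-head set, 0.781 in the one-gene start set and 0.586 in all promoters. Windows of facing genes share bases, so a single match could count for both genes.

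Among head-to-head genes, CCAAT was in 46.5% of the 932 windows whose region was called with H1C and in 31.8% of the 110 windows whose region was not. For one-gene starts the shares were 43.5% of 4000 and 32.7% of 1805. Median GC content was 62% in the called and 62.5% in the not called head-to-head set. It was 62% in the called and 58.7% in the not called one-gene start set. Regions that were not called again had lower control pileups, and the part of pileup in these shares was not tested.

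Most two-gene regions were called again in the H1C library, and more often than one-gene regions. A control region is called kept here when it overlapped an H1C region by at least 1 bp. Of the two-gene regions 1275 of 1716 were kept (74.3%, exact Clopper-Pearson 95% interval 72.2 to 76.4), against 5108 of 8429 one-gene regions (60.6%, 59.5 to 61.6). The share over all control regions was 34.1%. The difference was 13.7 percentage points (95% interval 11.3 to 16). In 19 of 20 chromosomes the two-gene share was above the one-gene share, the exception being chromosome 8 with 62.4% against 64.1%. The two-gene share ran from 62.2% on chromosome X (23 of 37 regions) to 86.7% on chromosome 13 (52 of 60).

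Two-gene regions were also stronger and wider in the control library, where the comparison is within 1 list. The authors' fold, the summit over the local background, had a median of 6.87 (quartiles 5.1 and 8.63) at two-gene regions and 6.09 (4.39 and 8.14) at one-gene regions. Their −log10 p had medians of 29.2 and 21.6, and their −log10 q medians of 25.7 and 18.3, in the same order. The summit pileup, meaning the fragments or reads stacked at the highest point, was 53 (38 and 71) at two-gene regions and 42 (28 and 61) at one-gene regions. Width was 572 bp (400 and 755) at two-gene regions and 481 bp (323 and 663) at one-gene regions. A wide region reaches more windows, so width is not independent of the way the regions were chosen. The summit lay near the middle in both sets, at a median of 0.486 of the width at two-gene and 0.49 at one-gene regions.

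Within ranges of control pileup the shares of both sets were close, and the direction of their difference depended on the window. Kept shares of two-gene and one-gene regions were 22.1% and 18.6% at pileups over 20 to 30, 44% and 46.3% over 30 to 40, 83.4% and 83.5% over 40 to 60, and 99.2% and 97.9% over 60 to 80. All 273 two-gene and all 810 one-gene regions above a pileup of 80 were kept. With one-gene regions weighted to the pileups of the two-gene regions, the shares were 74.3% and 74%, a difference of 0.287 points (-1.38 to 1.95). It was 2.33 points (0.575 to 4.08) with windows of 500 bp and -1.77 points (-3.26 to -0.278) with windows of 2500 bp. With gene starts only, which left out genes without a strand, it was 3.69 points (1.68 to 5.71). Matched on the authors' fold instead, the difference was 5.48 points (3.78 to 7.18). The local background, which stands between pileup and fold, had a median of 6.82 at two-gene and 6.02 at one-gene regions.

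The arrangement of the genes went with larger differences than the number of genes. Head-to-head regions were kept at 483 of 575 (84%, 80.7 to 86.9) and overlapping starts at 249 of 316 (78.8%, 73.9 to 83.2). Starts beside ends were kept at 210 of 328 (64%, 58.6 to 69.2), and 19 of 27 same-strand starts were kept (70.4%, 49.8 to 86.2). Regions with 2 ends were kept at 2 of 28 (7.14%, 0.877 to 23.5). One-gene regions were kept at 64.4% at starts (4112 of 6381) and 19.3% at ends (78 of 405). The interval of the difference between 2 ends and 1 end ran from -18.7 to 3.79 points, so these sets could not be told apart. Regions with a missing strand were kept at 280 of 402 (69.7%), and those with 3 or more genes at 32 of 40 (80%, 64.4 to 90.9).

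**Figure D1:**
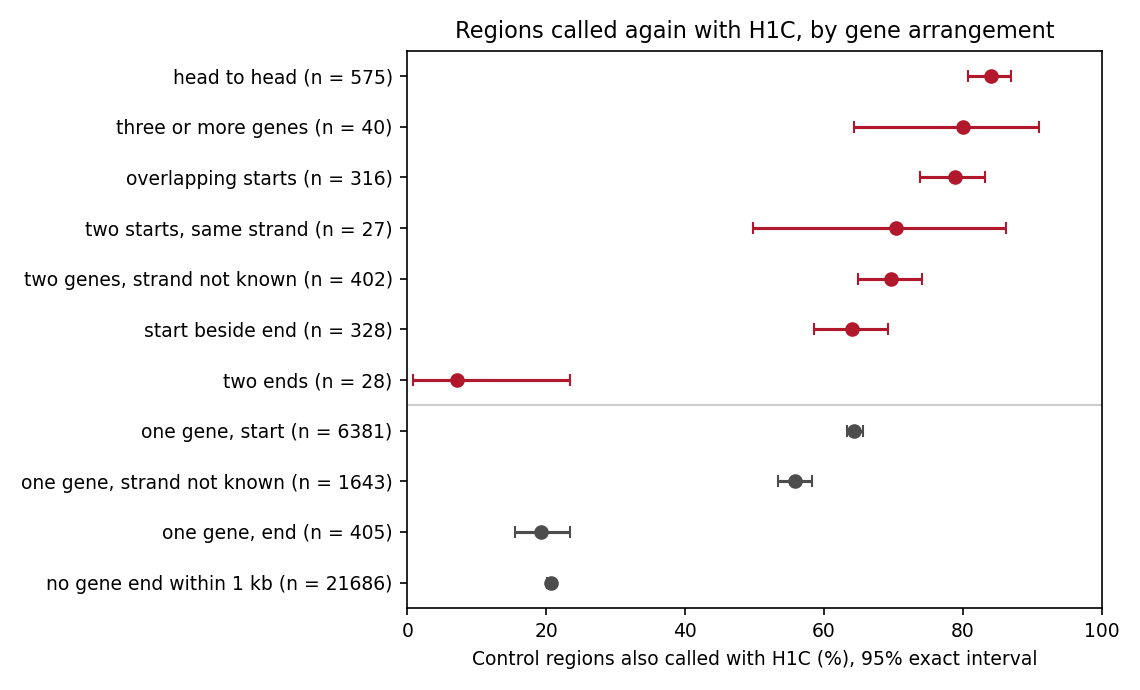
Share of control regions that overlapped an H1C region (x axis, percent, with exact 95% intervals for counting error) by gene arrangement (rows, with the number of regions); red marks two-gene regions and grey the others. Head-to-head regions stood at 84% and regions with 2 ends at 7.14%, against 64.4% at one-gene starts.

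Part of this order was also seen within ranges of control pileup. Head-to-head regions were kept 2.89 points more often than one-gene starts in the same pileup ranges (0.493 to 5.29), where all regions together gave 19.6 points. Median pileups were 59 at head-to-head regions and 45 at one-gene starts, and the part of pileup differences within a range was not tested. The interval of the head-to-head difference included 0 in 4 of 14 alternatives, with the lowest value, 0.912 points (-2.65 to 4.48), at 50% reciprocal overlap. Overlapping starts gave 4.13 points (0.549 to 7.71). Starts beside ends were kept 7.62 points less often than one-gene starts in the same pileup ranges (-11.4 to -3.86). All regions together gave only -0.417 points (-5.87 to 4.72), so this difference was not part of the unmatched order. The median pileup of starts beside ends was 49. Their difference turned to 1.94 points (-1.78 to 5.66) when regions were matched on fold. It was -2.92 points (-6.32 to 0.481) when they were matched on −log10 p. For head-to-head regions the difference from one-gene starts was positive under both, with 6.68 points (4.31 to 9.06) and 3.51 points (1.31 to 5.72) in the same order. Median local background was 6.9 at head-to-head regions, 7.04 at starts beside ends and 6.08 at one-gene starts.

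**Figure D2:**
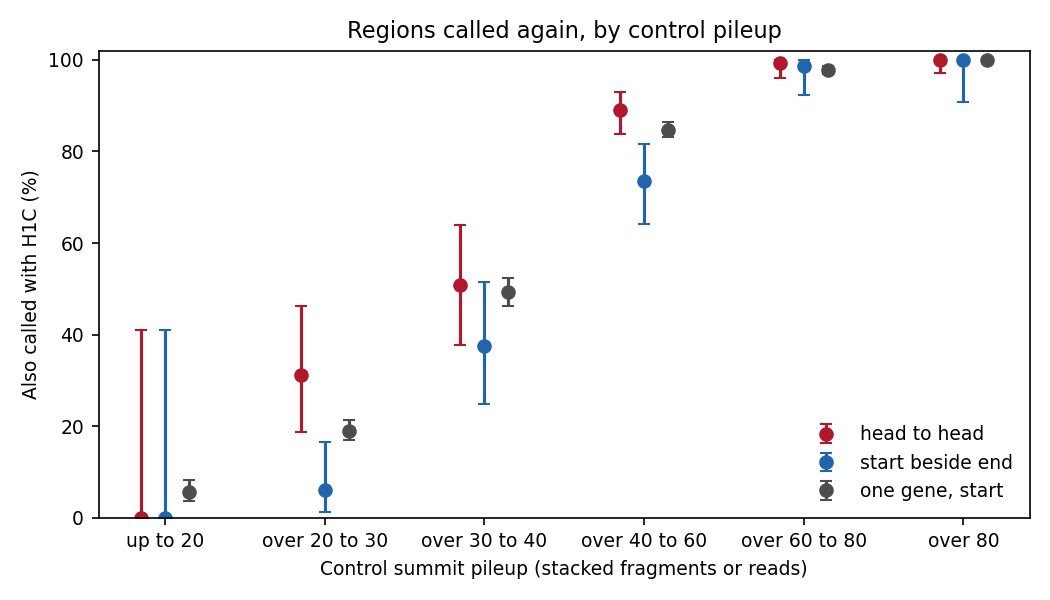
Share of control regions also called with H1C (y axis, percent, exact 95% intervals) in 6 ranges of control summit pileup (x axis) for head-to-head, start-beside-end and one-gene start regions. At pileups over 40 to 60 the shares were 89.1%, 73.6% and 84.8%, and above 80 all 3 sets were at 100%.

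Regions that lay on the starts themselves were kept far more often than those beside them. Of the head-to-head regions, 465 overlapped both starts and 91.6% of them were kept (88.7 to 94). Another 49 overlapped 1 start, and 69.4% of them were kept (54.6 to 81.7). The remaining 61 lay beside the starts, and 37.7% of them were kept (25.6 to 51), a share close to the 36.9% (34.5 to 39.3) of one-gene regions beside a start. Median control pileups went with these shares, at 62, 51 and 34 in the 3 head-to-head sets. Among regions that overlapped a start, head-to-head regions were kept 3.14 points more often than one-gene regions in the same pileup ranges (0.777 to 5.5). Starts beside ends were kept 7.14 points less often (-11.3 to -2.94). These splits were chosen after the values had been seen.

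The distance between facing starts did not order the kept shares. They were 82.2% at up to 100 bp (286 regions), 90.6% over 100 to 200 bp (127), 80.6% over 200 to 300 bp (62), 90.2% over 300 to 500 bp (51) and 74.3% over 500 to 1000 bp (35). At over 1000 bp, 11 of 14 were kept. The exact intervals of all neighbouring steps overlapped, for example 77.2 to 86.4 for the first and 84.1 to 95 for the second. Such overlap does not show that the shares are alike, and differences between steps were not tested.

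The control summit lay between the facing starts in 303 of 575 head-to-head regions (52.7%, 48.5 to 56.8), at a median of 55.5 bp from the midpoint. Among kept regions the summit lay between the starts in 57.1% (52.6 to 61.6), and among those not kept in 29.3% (20.3 to 39.8). The region itself overlapped both starts in 88.2% of kept and 42.4% of not kept regions. The part of this in the summit shares was not tested. With the same 483 kept regions, 243 H1C summits and 276 control summits lay between the starts, at medians of 56.5 bp and 47 bp from the midpoint. A narrow gap leaves little room for a summit, and the share was 37.1% for starts up to 100 bp apart.

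**Figure D3:**
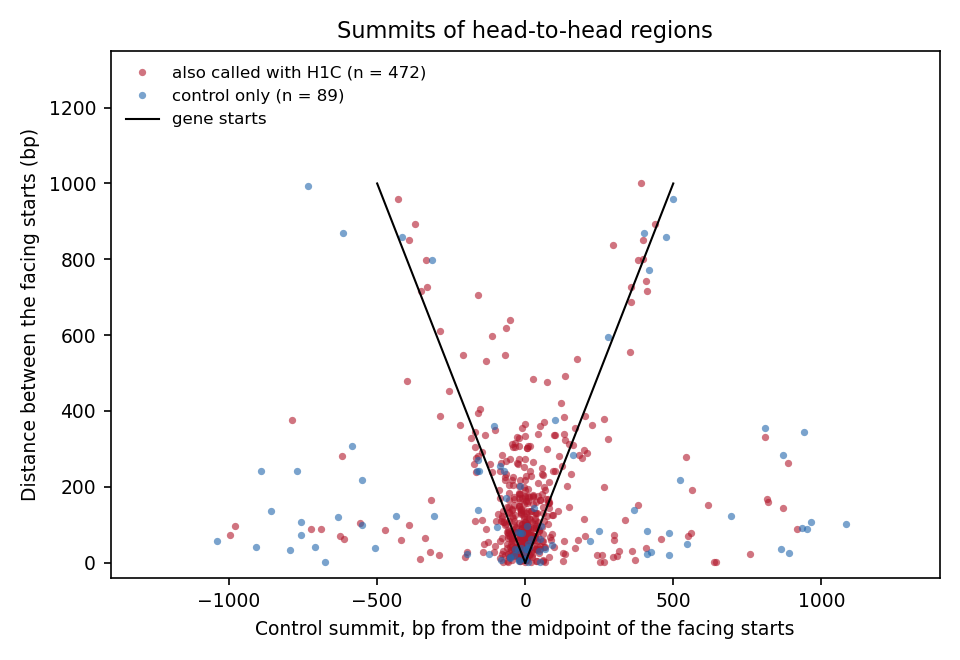
Position of the control summit relative to the midpoint of the facing starts (x axis, bp) against the distance between the starts (y axis, bp) for head-to-head regions with starts up to 1000 bp apart. The solid lines are the gene starts, and most summits gather near the midpoint, with 37.1% between the lines at up to 100 bp and 74.3% between them over 500 to 1000 bp.

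Pileups at kept two-gene regions were lower in the H1C library, by about the same factor as at one-gene regions. The summit pileup had a median of 37 in H1C (range 16 to 84) and 61 in control (18 to 138) over the 1275 kept regions. Divided by the ratio of the genome-wide backgrounds of the libraries (1.1), the H1C over control ratio had a median of -0.86 on the log2 scale (quartiles -1.04 and -0.66), or 0.553. On that scale 1267 of 1275 two-gene regions lay below 0 (99.4%), against 98.8% of kept one-gene regions and 93.7% of all kept regions. One-gene regions had a median of -0.84 (quartiles -1.04 and -0.65). For 995 two-gene regions (78%) the 95% interval of the ratio lay wholly below 1. The share was 74% for kept one-gene regions and 62.1% over all kept regions. Such an interval is easier to reach at high pileup. Among regions with a control pileup of at least 60 it was reached by 645 of 677 two-gene regions (95.3%). The share there was 96% of one-gene regions and 94.3% of all. Control pileup is also the denominator of the ratio, so choosing regions by it tends to lower the ratio in every set. None of the two-gene regions had an interval wholly above 1, against 0.0184% of all kept regions. Scaled by the local backgrounds instead, 475 of 1275 two-gene intervals lay below 1 (37.3%). The share was 33.4% for one-gene regions and 27.9% for all kept regions. Again no two-gene interval lay above 1, against 0.635% of all. At pileups of at least 60, 375 of 677 two-gene intervals lay below 1 (55.4%), against 54.3% of one-gene regions and 54.7% of all.

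By pileup, the median ratio was also close between the sets. It was -0.35 at two-gene and -0.36 at one-gene regions with pileups over 20 to 30, -0.81 and -0.87 over 40 to 60, and -0.91 and -0.91 above 80. Weak regions have a ratio only if they reached the H1C calling threshold, so their ratios are bounded from below. Head-to-head regions with pileups of at least 60 had a median of -0.91 (SD over 276 regions 0.23) and starts beside ends one of -0.95 (SD over 112 regions 0.27). Scaled instead by the local backgrounds at shared summits, the median over all kept two-gene regions was -0.51. A change of scaling shifts all ratios by the same amount, in every set.

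**Figure D4:**
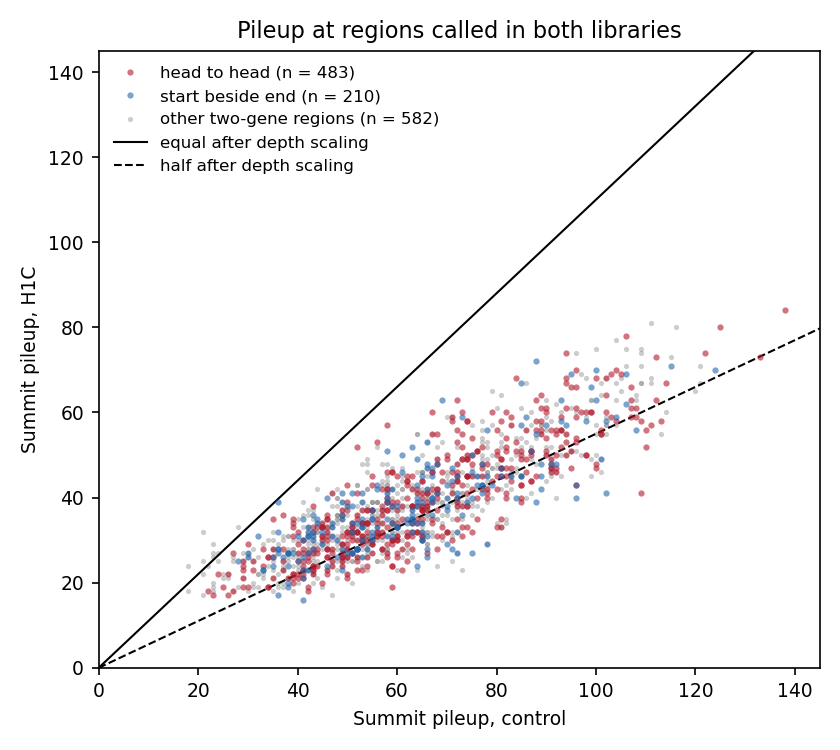
Summit pileup in H1C (y axis) against control (x axis) at the 1275 two-gene regions called in both libraries; the solid line is equal pileup and the dashed line a ratio of 1 to 2, both after scaling by the background ratio of 1.1. Of the 1275 points 1267 lie below the solid line (99.4%, against 93.7% of all kept control regions), with medians of 37 in H1C and 61 in control.

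Kept regions were narrower in H1C and had their summits in nearly the same place. Width had a median of 428 bp in H1C and 643 bp in control, and 1167 of 1275 two-gene regions were narrower in H1C (91.5%), against 90.4% of one-gene regions. The summit differed by a median of 24 bp between libraries (quartiles 9 and 58), and by 25 bp at one-gene regions. In 36 two-gene regions (2.82%) the control region overlapped more than 1 H1C region. Width and pileup went together within the control list, with medians of 643 bp and 61 at kept and 335 bp and 31 at not kept two-gene regions. The part of pileup in the narrowing was not tested.

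A kept region with a lower pileup in H1C was found at each textbook gene pair described here except Col4a1 and Col4a2. Hspd1 and Hspe1, the mitochondrial chaperonin and its cofactor, shared a region at chromosome 1, 55087603 to 55088481, with pileups of 49 in H1C and 77 in control. Their log2 ratio was -0.79 (95% interval -1.34 to -0.26). Atm, the kinase that signals DNA breaks, and Npat, a regulator of histone genes, had pileups of 61 in H1C and 94 in control. The shared region covered chromosome 9, 53536514 to 53537488, and the log2 ratio was -0.77 (-1.26 to -0.29). Mcm4, a replicative helicase subunit, and Prkdc, a kinase of end joining, had 42 in H1C and 78 in control. For these pairs the interval of the ratio lay below 1. With local background scaling it included 1 at Hspd1 and Hspe1 (log2 ratio -0.45, -1 to 0.09) and at Atm and Npat (-0.42, -0.91 to 0.06), and lay below 1 at Mcm4 and Prkdc (-0.69, -1.27 to -0.13).

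Pairs of metabolism, mitochondria and antigen processing gave the same direction with intervals of different reach. Paics and Ppat, both of purine synthesis, had pileups of 45 in H1C and 83 in control. Mrps12, a mitochondrial ribosomal protein, and Sars2, the mitochondrial seryl-tRNA synthetase, had 44 in H1C and 87 in control (log2 ratio -1.13, -1.68 to -0.59). Surf1, an assembly factor of cytochrome oxidase, and its neighbour Surf2 had 27 in H1C and 38 in control (-0.64, -1.4 to 0.11), and the interval included equality. Tap1, a peptide transporter, and Psmb9, an immunoproteasome subunit, had 59 in H1C and 71 in control (-0.41, -0.93 to 0.11), which also included equality. Sirt3, a mitochondrial deacetylase, and Psmd13, a proteasome subunit, had 2 control regions, the stronger with 37 in H1C and 57 in control. Both were matched by 1 H1C region, so they are not separate observations. Col4a1 and Col4a2, collagen genes of basement membranes, had no region near both genes.

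**Figure D5:**
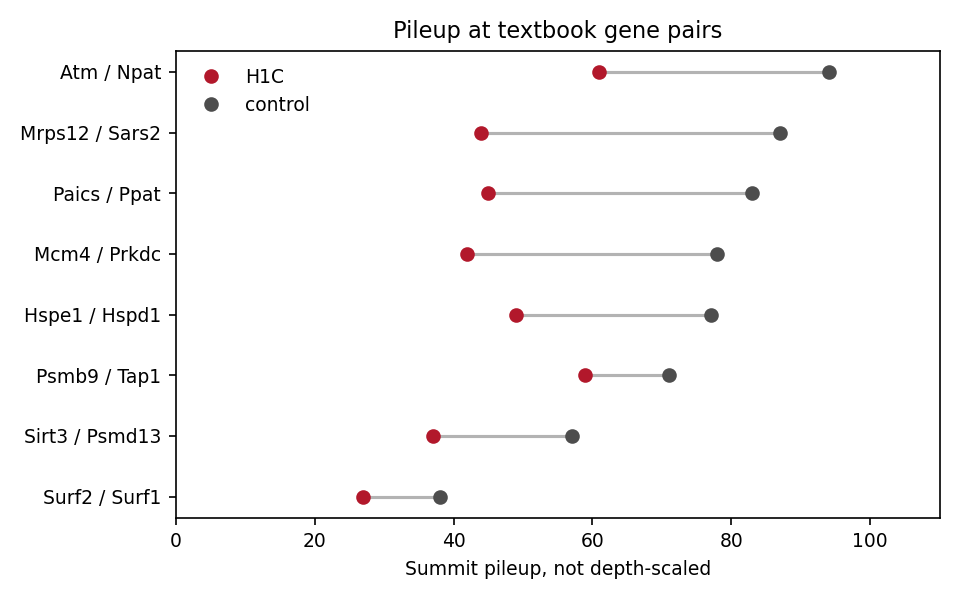
Summit pileup in H1C (red) and control (grey), not scaled for depth (x axis), at the shared region of 8 textbook gene pairs (rows). The pileup was lower in H1C at each pair, and the ratio nearest to equality was at Psmb9 and Tap1, with 59 in H1C and 71 in control.

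The strongest kept two-gene regions held pileups of 67 to 84 in H1C and 121 to 138 in control. Samd4b, an RNA-binding protein gene, and Gmfg, an actin regulator of blood cells, had 84 in H1C and 138 in control on chromosome 7, 28436254 to 28436861. Tbc1d10b, a Rab GTPase-activating protein gene, and Mylpf, a myosin light chain gene of fast muscle, had 73 in H1C and 133 in control. Mylpf is a muscle gene, and the region does not tell which gene of a pair it serves. Usp20, a deubiquitinase gene, faced BC005624 with 80 in H1C and 125 in control. Ubxn6 and Hdgfl2 had 74 in H1C and 122 in control. The start-beside-end region of Prr14 and Fbrs had 70 in H1C and 124 in control, and the region of Pmel and Rab5b, whose arrangement is unknown, had 67 in H1C and 121 in control.

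The strongest two-gene regions that were not kept had control pileups of 59 to 65. They lay at C030006K11Rik and Lrrc24 (65), at Ddt and Gstt3 (63), at Cct5 and Atpsckmt (61), at Poc1b and Galnt4 (60), at B9d2 and Tgfb1 (59), and at Katnbl1 and Emc4 (59). Cct5 encodes a subunit of the cytosolic chaperonin and Tgfb1 the growth factor TGF-beta. The strand of a gene was missing for 3 of these 6, and a head-to-head arrangement was found at Cct5 and Atpsckmt (chromosome 15, 31601554 to 31602276, fold 6.92). Its sequence is given above, and its starts lay 270 bp apart.

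Among kept regions with a control pileup of at least 60, log2 ratios ran from -1.81 to -0.27. The highest was at Gsto1 and Gsto2, glutathione transferase genes, with pileups of 63 in H1C and 69 in control (interval -0.79 to 0.24). Tnfaip1 and Ift20 followed with 60 in H1C and 67 in control, and Nfkbib and Sirt2 with 63 in H1C and 72 in control. The intervals of the 5 highest included equality. The lowest was at Ache, Ufsp1 and Srrt on chromosome 5, with 23 in H1C and 73 in control (-2.55 to -1.12). Nif3l1 and Ppil3 had 25 in H1C and 71 in control, and Ifi27l2a and Ifi27, interferon-induced genes, 24 in H1C and 68 in control. These regions were picked by their rank, so their ratios are descriptions.

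Genes of DNA repair, mitochondria and histones often had a two-gene region. Of all 10263 genes with a control gene-end region, 30.1% had one near a second gene. The share was 61.9% for histones (39 of 63 genes), where the genes lie in clusters, and 54.3% for mitochondrial ribosomal proteins (38 of 70). It was 45.9% for DNA repair and Fanconi genes (34 of 74), 45.2% for oxidative phosphorylation (42 of 93) and 44.1% for tRNA synthetases (15 of 34). It was 37.3% for replication (19 of 51), 35.4% for RNA polymerase and transcription machinery and 34.5% for splicing. Lower shares were seen for cytosolic ribosomal proteins (28%), ubiquitin and proteasome genes (22.3%) and zinc finger genes (16.6%). Gene spacing and accessibility both enter these shares and cannot be told apart in them.

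The kept shares of DNA repair and replication regions could not be told apart from that of all two-gene regions. Of 38 DNA repair and Fanconi regions 31 were kept (81.6%, 65.7 to 92.3), and the median log2 ratio was -0.98. Xrcc3, of homologous recombination, with Zfyve21 had pileups of 59 in H1C and 103 in control. Fancf, of the Fanconi core complex, shared a control-only region with Gas2 (pileup 57, chromosome 7, 51862146 to 51862453). Lig4, the ligase of end joining, shared one with Abhd13 (pileup 44). Of 20 replication regions 16 were kept (80%, 56.3 to 94.3). Rpa3, of the complex that coats single-stranded DNA, and Umad1 had 47 in H1C and 100 in control, while Pole2, a polymerase subunit gene, and Klhdc1 had a control-only region (pileup 30). Both intervals held the 74.3% of all two-gene regions, but they are wide and do not show that the shares are alike.

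Oxidative phosphorylation and tRNA synthetase regions were kept above the share of all two-gene regions, and mitochondrial ribosomal protein and histone regions near it. Oxidative phosphorylation regions were kept at 40 of 44 (90.9%, 78.3 to 97.5), with an interval above 74.3%. Their median control pileup was 52.5, near the 53 of all two-gene regions, and pileup-matched shares were not computed for single lists. Of these 44 regions 25 were head to head, against 575 of all 1716, and head-to-head regions were kept at 84%. The part of arrangement in this share was not tested, and no allowance was made for the number of lists. Ndufs8, a complex I subunit, with Aldh3b1 had 63 in H1C and 100 in control, and Ndufa11 with Vmac had a control-only region (pileup 45). Mitochondrial ribosomal protein regions were kept at 31 of 40 (77.5%, 61.5 to 89.2), among them Mrps18b and Ppp1r10 with 67 in H1C and 114 in control. Mrpl2 with Cul7 (pileup 43) was in control only. All 15 tRNA synthetase regions were kept (100%, 78.2 to 100, also above 74.3%), including Yars and S100pbp with 45 in H1C and 74 in control. One-gene regions of these genes were also kept above the 60.6% of all one-gene regions. Their shares were 71.9% for oxidative phosphorylation (41 of 57) and 79.2% for tRNA synthetases (19 of 24). Every list except histones had a two-gene share above 74.3%. Histone regions were kept at 19 of 26 (73.1%, 52.2 to 88.4) with the lowest median log2 ratio of the lists, -1.12. The facing pair H2ac8 and H2bc8 had 31 in H1C and 69 in control, and H4c9 with H2ac11 had a control-only region (pileup 47). Near-identical histone genes can exchange reads in mapping, so single histone values are uncertain.

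Regions of gene expression and protein turnover genes lay in the same range. RNA polymerase and transcription machinery regions were kept at 33 of 39 (84.6%, 69.5 to 94.1), splicing regions at 18 of 20 (90%, 68.3 to 98.8) and cytosolic ribosomal protein regions at 20 of 23 (87%, 66.4 to 97.2). Ubiquitin and proteasome regions were kept at 24 of 29 (82.8%, 64.2 to 94.2) and zinc finger regions at 32 of 39 (82.1%, 66.5 to 92.5). Med29, a Mediator subunit, and Paf1, an elongation factor, had 51 in H1C and 85 in control. Prpf4, a splicing factor gene, and Cdc26 had 47 in H1C and 91 in control, and a second, weak control region near them (pileup 20) was not kept. Rpl37 and Card6 had 51 in H1C and 95 in control. Each of the 11 lists was kept at a share above that of its own one-gene regions, as over all genes. The shares were 82.1% and 60.3% for zinc finger genes, but 87% and 85% for cytosolic ribosomal proteins. None was matched on pileup, and over all genes the difference within pileup ranges was 0.287 points (-1.38 to 1.95).

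Seen from the H1C list, 1285 of 13001 regions lay near 2 or more genes (9.88%), against 5.39% in control. One-gene regions were also a larger part of the H1C list, with 5332 of 13001, against 8429 of 31831 in control. Of the 1285 two-gene regions 1272 overlapped a control region (99%, 98.3 to 99.5). The share was 97.7% for one-gene H1C regions (97.2 to 98.1) and 85% for all H1C regions. The 13 two-gene regions that did not were weak, with the 3 strongest at Myl6 and Myl6b (pileup 28), Enkd1 and 4933405L10Rik (26), and Npm3 and Oga (23). Median fold in the H1C list was 5.21 at two-gene and 5.08 at one-gene regions.

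Regions whose second gene lay close to the edge of the window resembled those just beyond it. With the second gene in the outermost 100 bp of the 1000 bp window, 32 of 66 regions were kept (48.5%), with a median control pileup of 41. With the second gene up to 100 bp beyond it, 45 of 79 were kept (57%), with a median of 42. Regions that overlapped ends of both genes were kept at 818 of 920 (88.9%), with a median pileup of 59. The share for all two-gene regions therefore depends on the width of the window.

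The H1f2 gene itself lay in a one-gene region (chromosome 13, 23738677 to 23740174), with pileups of 43 in H1C and 72 in control, and accessibility does not measure its expression. Of 12 stem cell marker genes, 1 had a gene-end region in H1C (Mllt3) and 7 in control, Kit and Slamf1 among them, where Procr, Mecom, Gata2 and Fgd5 were among those with none. Of 7 markers of mature lineages 0 had one in H1C and 4 in control, and of 3 non-hematopoietic markers 0 in H1C and 2 in control. Over all 21631 genes, 34% had a gene-end region in H1C and 47.4% in control. The part of other cell types in the results was not tested.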

How the data were processed

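The submitters' processing notes name MACS2, Bowtie2 2.2.9, featureCounts, Picard and Trim Galore 0.4.4, and the build mm10. Their settings, duplicate handling and any shift to the cut site are not given in the sources used here, and could alter summit heights and positions. One region list per library was deposited. The values deposited by the authors are the fold (a ratio of summit pileup to local background), −log10 p, −log10 q, a score that was not used, and the summit position. The lists give no read totals.

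Pileup and local background were solved from fold and Poisson −log10 p, and the pileup came out whole (relative tolerance 0.0001) for 32005 of 32005 control and 13156 of 13156 H1C entries. On simulated data 3000 of 3000 pileups were recovered. The lowest local background, 4.4 in H1C and 3.99 in control, stood for depth. Gene positions came from RefSeq (GRCm38.p6) and strand from its promoter table, for 17274 of 21631 genes.

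Shares have exact Clopper-Pearson 95% intervals, differences of shares Newcombe intervals, and ratios exact conditional binomial intervals. Amplified reads are not independent molecules, so these can be too narrow. Shares were matched in 6 ranges of pileup (edges 20, 30, 40, 60 and 80), for which the interval was a normal approximation. The regions, gene lists, pairs and motifs were chosen with earlier results of these data known. Gene families were taken by the start of their symbol, so a few members have other functions (Mcm3ap, for example). Named regions were the 6 strongest kept and not kept, the 5 highest and lowest ratios at pileups of at least 60, those near the most genes, textbook pairs, and the strongest of each list. Some of these are not reported here. Scripts ran in Python 3.11.15 with scipy 1.17.1 and pandas 2.3.3 (numpy 2.4.6), and figures were drawn with matplotlib 3.10.9.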

Additional observations from a re-analysis of the deposited data

How the results depend on the processing

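No paired analysis was possible because H1C and control had 1 library each. Under the 81 alternatives run on 11 results, 56 values stayed within the interval of the reported one (counts within 1.5 times) and 25 did not; the cause was not tested. The sign changed in 5, of which 4 concerned the two-gene difference within pileup ranges, whose reported interval holds 0. The kept share was 80.5% with windows of 500 bp, 66.4% with 2500 bp, 81.8% with gene starts only, 59.3% with 50% reciprocal overlap, 69.3% with summits within 200 bp and 86% with lists of equal length. It was 77.9% for the strongest region of each gene combination and 82.6% for regions on a gene start. The last 2 settings, matching on −log10 p and the count of intervals under local scaling were chosen after seeing the data. The crude difference from one-gene regions was 17.2 points with gene starts only, 5.33 with equal length and 8.84 on gene starts, and its interval lay above 0 in 11 of 11 alternatives. Within pileup ranges it was 2.33 points with 500 bp, -1.77 with 2500 bp (interval -3.26 to -0.278, below 0) and 3.69 with gene starts only, 5.48 in fold ranges and 2.16 in −log10 p ranges; the interval held 0 in the other 10 of 15. For head-to-head regions it was 6.68 points in fold ranges, and the interval lay above 0 in 10 of 14 alternatives. For starts beside ends it was 1.94 points in fold ranges, with the sign turned, and -2.92 in −log10 p ranges; the interval lay below 0 in 10 of 13. The median log2 ratio was -0.51 with local backgrounds and -0.92 at pileups of at least 60. Median fold was 7.06 at −log10 q of at least 5. The number of two-gene regions was 2645 with 2500 bp and 946 with gene starts only. The 4357 genes without a strand had no start in the settings of gene starts only and of regions on a gene start. The part of this loss in their values was not tested. With local backgrounds 475 two-gene ratio intervals lay below 1, where 995 did before. Local backgrounds shifted the log2 ratios of all 50 named regions by the same amount, which was less than the reach of every interval. The interval lay below 1 at 30 of these regions, against 42 before.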
